A study of Mus musculus with 3 samples.

Results

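Granins are acidic proteins stored in the dense core granules of neurons and endocrine cells, and the prohormone processing genes encode the enzymes and helper proteins that cut and trim peptide precursors inside those granules. The 10 genes described here are the granins Chga, Chgb, Scg2, Scg3 and Vgf, the convertases Pcsk1 and Pcsk2, the convertase-binding proteins Pcsk1n and Scg5, and the carboxypeptidase Cpe. They were chosen by symbol: a row of the gene table belonged to the set when its aliases held 1 of these names. Each symbol matched 1 row, so 10 of the 26840 genes kept for comparison were members. Granins are sorted into the regulated secretory pathway, where they help granules to form and are themselves precursors of peptides. Convertases cut precursors after pairs of basic residues, and carboxypeptidase E then removes the basic residues left at the ends. CAD cells, a mouse neuroblastoma line with catecholamine properties, serve as a model of neuronal differentiation, and granin genes are among the classical markers of such cells.

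Cultures received control siRNAs (control), siRNAs against Ptbp1 (Ptbp1 siRNA), or siRNAs against Ptbp1 and Ptbp2 (both siRNAs), and were harvested after 72 h. Ptbp1 and Ptbp2 encode polypyrimidine tract binding proteins, RNA-binding regulators of splicing and RNA stability, and the series asked how they set the levels of neuronal mRNAs. All cultures were of 1 line and were transfected with the same lipid reagent, and the labels give the siRNA as their one difference. Each group had 1 library of poly(A)-selected RNA, so no difference below has a replicate check and none has a p-value. Intervals given in parentheses are exact 95% conditional binomial intervals that cover counting error alone and may be too narrow, since PCR copies were not separated from independent molecules. In cultures measured as a whole, fewer cells with a transcript and less transcript per cell cannot be told apart.

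The 3 libraries held 15770028, 16687397 and 14073895 reads over the genes kept, listed as control, then Ptbp1 siRNA, then both siRNAs, here and throughout. The targeted gene Ptbp1 had 7191, 1486 and 1516 reads. Ptbp2 had 784, 3044 and 633 reads, so it was higher after Ptbp1 siRNA and near the control level after both. Of 15 markers of noradrenergic and neuronal cells, 14 reached 1 CPM (reads scaled by the size of the library) in every library, with summed levels of 4222, 3996 and 4465 CPM, while the noradrenaline transporter gene Slc6a2 was at 0, 1 and 0 reads. Within that list Dbh, which makes noradrenaline, and Phox2a, a factor of noradrenergic identity, were called higher after both siRNAs (2.33-fold, 2.22 to 2.46, and 2.08-fold, 1.95 to 2.21). About 26.1% of the exonic sequence of Phox2a overlaps another gene. Of all 13304 genes tested in that comparison 1.10% were called higher. The marker list did not rise as a whole: of its 14 genes tested after both siRNAs 6 were above the control and 8 below, with a median log2 difference of -0.015. The interval excluded 1 for 4 on the higher side and 5 on the lower. Markers of other cells were low in sum. In 2 of these lists 1 gene carried most of the sum: 6 fibroblast markers gave 9.59, 6.78 and 5.33 CPM, and 5 blood and endothelial markers 22.6, 17.2 and 12.0. Of these Col1a1, a collagen gene, had 122, 88 and 48 reads and was called lower after both siRNAs (2.36-fold, 1.68 to 3.38). The other fibroblast marker tested differed from the control by 0.142 after both siRNAs on the log2 scale. Pecam1, an endothelial adhesion gene, had 335, 259 and 161 reads and was 1.94-fold lower after both siRNAs (1.60 to 2.35), not called. After Ptbp1 siRNA 2 markers of that list were tested, Pecam1 at -0.490 and another at 0.865 on the log2 scale. The interval of the latter excluded 1 on the higher side, but it was not called, and it was not tested after both siRNAs. The 7 glial markers went the other way, with 3.39, 6.61 and 5.19 CPM in sum. The 1 glial marker tested differed from the control by 0.705 after Ptbp1 siRNA and 0.4955 after both siRNAs on the log2 scale, not called. The part of these shifts in the members' differences was not tested. Pnmt, which marks adrenaline-making chromaffin cells, had 0 reads in all 3 libraries. It is 1 of 9 markers of chromaffin and other endocrine cells, which gave 4.31, 4.31 and 5.26 CPM in sum, and 2 of them reached 1 CPM in each library. The 2 tested after both siRNAs were above the control, by 0.0203 and 0.514 on the log2 scale, with intervals that included 1. In a comparison of 2 libraries a gene is named as called by size when it differed at least 2-fold on the log2(CPM + 1) scale, reached 1 CPM in the higher library and had an interval that excluded 1.

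Promoters of the set were compared first, because several granin and convertase genes are textbook targets of factors that bind the cyclic AMP response element. RefSeq promoters, 250 bases before to 50 after the start (GRCm38.p6), were matched by symbol for 8 of the 10 genes, and Vgf and Cpe had no entry. The full palindrome TGACGTCA was found on either strand in 3 of the 8, Chgb, Scg2 and Pcsk1, and in 1.79% of the 32851 mouse promoters searched the same way. Its core TGACG, which the full palindrome also contains, was present in 7 of the 8, all but Pcsk1n, and in 20.8% of all promoters. The GC box GGGCGG was present in 6 of the 8 against 35.7%, and the E box CANNTG in 6 of the 8 against 72.3%. These are matches of letters and do not show binding.

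The 250 bases before the start are printed for the 3 genes with the full element and for Chga, the namesake of the family, which holds the core alone. Capitals mark the full palindrome, or in Chga the core, and coordinates are exact matches to the mm9 genome. The stretches are chr2:132607128-132607377 (plus strand) for Chgb, chr1:79436602-79436851 (minus strand) for Scg2, chr13:75227055-75227304 (plus strand) for Pcsk1 and chr12:103792901-103793150 (plus strand) for Chga. That of Chgb lies wholly inside the deposited gene cluster, which begins at 132607015, before the RefSeq start used here. That of Scg2 overlaps its deposited cluster in part.
Chgb: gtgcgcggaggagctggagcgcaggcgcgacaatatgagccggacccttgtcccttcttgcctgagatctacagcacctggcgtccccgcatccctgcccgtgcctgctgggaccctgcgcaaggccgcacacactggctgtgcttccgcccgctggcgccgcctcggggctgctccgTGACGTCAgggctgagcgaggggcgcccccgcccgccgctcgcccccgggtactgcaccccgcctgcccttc
Scg2: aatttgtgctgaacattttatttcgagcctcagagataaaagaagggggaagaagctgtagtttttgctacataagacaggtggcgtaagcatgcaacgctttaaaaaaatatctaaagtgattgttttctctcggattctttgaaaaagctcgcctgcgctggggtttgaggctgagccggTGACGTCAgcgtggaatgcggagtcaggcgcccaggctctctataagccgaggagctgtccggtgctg
Pcsk1: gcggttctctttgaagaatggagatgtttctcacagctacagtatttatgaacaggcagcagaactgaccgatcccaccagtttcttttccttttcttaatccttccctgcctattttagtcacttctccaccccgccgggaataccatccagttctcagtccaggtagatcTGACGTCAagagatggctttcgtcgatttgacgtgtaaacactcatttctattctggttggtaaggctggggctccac
Chga: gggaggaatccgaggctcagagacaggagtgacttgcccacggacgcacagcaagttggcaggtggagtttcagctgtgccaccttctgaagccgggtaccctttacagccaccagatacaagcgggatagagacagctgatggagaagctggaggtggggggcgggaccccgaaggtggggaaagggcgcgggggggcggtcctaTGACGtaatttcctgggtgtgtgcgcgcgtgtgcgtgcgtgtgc
Counted back from the start, the palindrome spans -72 to -65 in Chgb, -68 to -61 in Scg2 and -78 to -71 in Pcsk1, and the core in Chga spans -44 to -40. The 3 genes with the full element had very unequal levels, from 379 RPKM for Chgb to 0.430 for Pcsk1 in the control library. After Ptbp1 siRNA Chgb differed from the control by -0.54 and Scg2 by 0.23 on the log2 scale, so these 2 lay on opposite sides of it.

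Per length of transcript, the granins Vgf and Chgb were among the most abundant RNAs of the control library, the other 3 granins lay far lower, and the granule convertases were close to undetected. Levels are compared between genes as deposited RPKM, read values scaled to exonic length and library size. Vgf was the highest of the 10 in the control library at 713 RPKM, rank 19 of all genes, followed by Chgb at 379 RPKM, rank 54. Cpe (81.5 RPKM), Pcsk1n (77.4) and Scg2 (74.5) came next, then Scg5 (48.9), Scg3 (42.7) and Chga (33.4). By rank among all genes Scg2 was at 581, Scg3 at 1160 and Chga at 1572. Counting error did not separate Cpe from Pcsk1n (ratio 1.05, 0.997 to 1.11) or Pcsk1n from Scg2 (1.04, 0.985 to 1.10) in that library, while Scg5 stood above Scg3 (1.14, 1.07 to 1.22) and Scg3 above Chga (1.28, 1.20 to 1.37). Pcsk1 stood at 0.430 RPKM and Pcsk2 at 0.0439, far below the other 8.

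**Figure D1:**
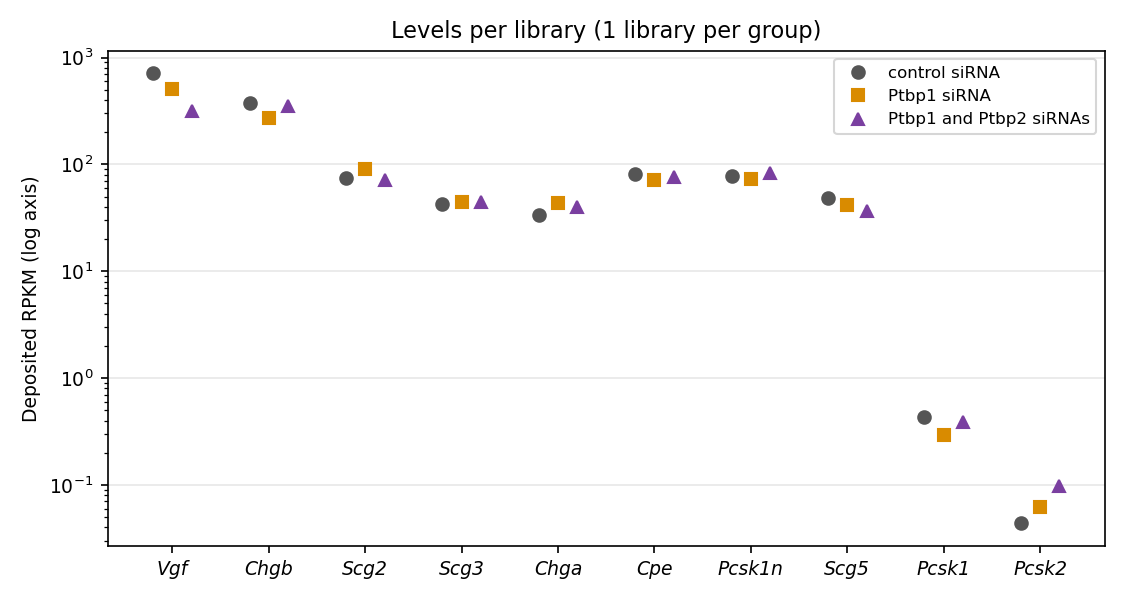
Deposited RPKM (log axis) of the 10 genes in the control, Ptbp1 siRNA and Ptbp1 and Ptbp2 siRNA libraries, 1 point per library and no error bars because each group has 1 library. Vgf descends from 713 to 315 RPKM over the 3 libraries, Chgb stays between 271 and 379, and Pcsk1 and Pcsk2 lie below 0.5 RPKM in all.

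Vgf encodes a neuropeptide precursor that is induced by nerve growth factor and is sorted into granules (chromosome 5, positions 137506131 to 137509222, plus strand). Its read values were 44608, 33763 and 17591, which is 2911, 1992 and 1234 CPM. The control library was the highest and the library with both siRNAs the lowest. Vgf was 1.46-fold lower after Ptbp1 siRNA (1.44 to 1.48) and 2.36-fold lower after both siRNAs (2.32 to 2.40), each against the control. Between the knockdown libraries it was 1.61-fold lower after both siRNAs (1.59 to 1.64). Only the difference between both siRNAs and control, -1.24 on the log2 scale, met the size for a call, and under quantile scaling it was -0.96 and no longer did. Of the genes tested in that comparison 1.17% were lower than Vgf, and its rank by RPKM went from 19 to 27 to 60.

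Chgb encodes chromogranin B, an acidic granule protein that binds calcium (chromosome 2, 132607015 to 132620809, plus strand). Its levels were 1634, 1121 and 1449 CPM, from 25041, 18999 and 20656 reads. The Ptbp1 siRNA library was the lowest and the library with both siRNAs lay between it and the control. Chgb was 1.46-fold lower after Ptbp1 siRNA (1.43 to 1.49), the same ratio to 3 digits as Vgf, but only 1.13-fold lower after both siRNAs (1.11 to 1.15). With Ptbp2 siRNA added to Ptbp1 siRNA it was 1.29-fold higher (1.27 to 1.32), where Vgf was lower. Under quantile scaling the difference of Chgb between both siRNAs and control changed sign, from -0.17 to 0.12.

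The ratio of the 2 transcripts within a library is the same under any scaling by a single factor per library, which quantile scaling is not. Per length, Vgf stood at 1.88 times the level of Chgb in the control library (1.85 to 1.91) and at 1.88 times after Ptbp1 siRNA (1.84 to 1.91). After both siRNAs the ratio was 0.899 (0.881 to 0.918), so Chgb was then the higher of the 2. Under quantile scaling the log2 differences from the control were -0.32 for Vgf and -0.28 for Chgb after Ptbp1 siRNA, against -0.55 and -0.54, and -0.96 and 0.12 after both siRNAs. The pair thus kept its ratio in the first step and not in the second. The ratio of Vgf to Scg2 was 9.57, 5.60 and 4.40, and that of Vgf to Chga 21.4, 11.7 and 7.92, lower at each step.

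**Figure D2:**
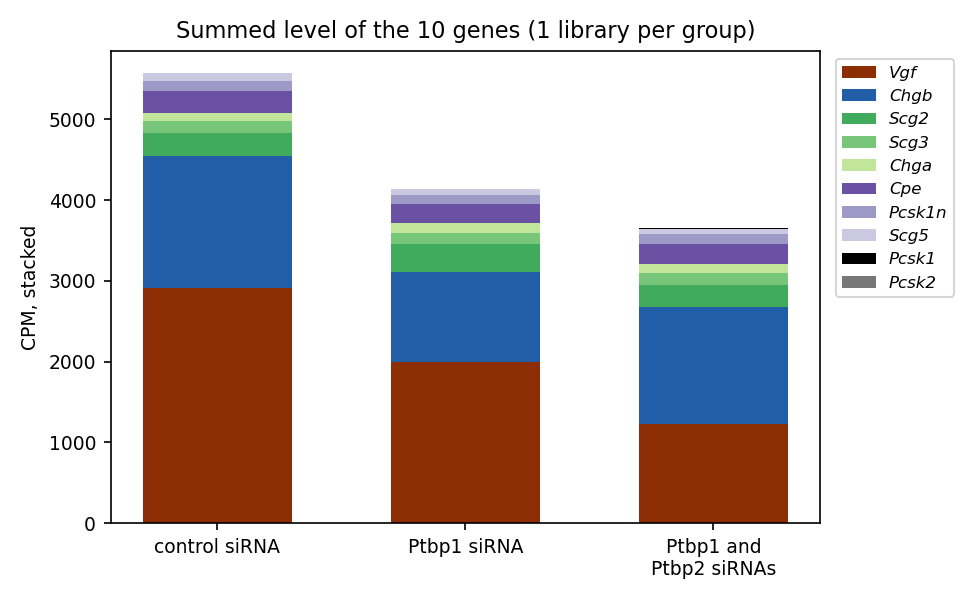
CPM of the 10 genes stacked for each of the 3 libraries (linear axis from 0, 1 library per group, no error bars). The total goes from 5572 to 4139 to 3652 CPM, and most of the difference lies in the Vgf and Chgb segments at the base of each bar.

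Vgf and Chgb also set the sum over the 10 genes. Of the reads over the genes kept, the 10 together took 0.541% in the control library (exact binomial 95% interval 0.538 to 0.545), 0.420% after Ptbp1 siRNA (0.417 to 0.424) and 0.370% after both siRNAs (0.367 to 0.373). Vgf alone held 52.2% of the members' reads in the control library (51.9 to 52.6), 48.1% after Ptbp1 siRNA (47.8 to 48.5) and 33.8% after both (33.4 to 34.2). The summed CPM was 1.35-fold lower after Ptbp1 siRNA (1.33 to 1.36) and 1.53-fold lower after both (1.51 to 1.54). Without Vgf and Chgb the remaining 8 genes summed to 1027, 1026 and 970 CPM. Relative to the control that sum stood at 0.999 after Ptbp1 siRNA (0.978 to 1.02) and at 0.944 with both siRNAs (0.923 to 0.966).

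Chga and Scg2 lay on the other side of the control after Ptbp1 siRNA. Chga encodes chromogranin A, precursor of vasostatin and catestatin (chromosome 12, 103793180 to 103803238, plus strand), and had 1518, 2090 and 1615 reads, or 99.1, 123 and 113 CPM. The Ptbp1 siRNA library was the highest, 1.24-fold above the control (1.16 to 1.33), and the library with both siRNAs was 1.14-fold above it (1.07 to 1.23). Scg2 encodes secretogranin II, precursor of secretoneurin (chromosome 1, 79431245 to 79436666, minus strand), and had 4474, 5791 and 3835 reads, or 292, 342 and 269 CPM. It was 1.17-fold higher after Ptbp1 siRNA (1.13 to 1.22) and 1.09-fold lower after both siRNAs (1.04 to 1.13), each against the control. Both genes were lower after both siRNAs than after Ptbp1 siRNA alone, Scg2 by 1.27-fold (1.22 to 1.32) and Chga by 1.09-fold (1.02 to 1.16). None of these differences reached the size for a call.

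Scg3 was the steadiest granin. It encodes secretogranin III, which links chromogranin A to the granule membrane (chromosome 9, 75491182 to 75531825, minus strand), and had 2230, 2447 and 2084 reads, or 146, 144 and 146 CPM. Relative to the control it stood at 0.992 after Ptbp1 siRNA (0.936 to 1.05) and at 1.00 with both siRNAs (0.946 to 1.07). The interval of each ratio included 1, so differences of about this width were not detectable at this depth.

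Transcripts of the granule convertases were barely present in any library. Pcsk1 encodes the convertase that begins the cutting of many prohormones (chromosome 13, 75227436 to 75269947, plus strand) and had 32, 23 and 26 reads, or 2.09, 1.36 and 1.82 CPM. Pcsk2 encodes the convertase that completes it in many neurons (chromosome 2, 143371916 to 143642019, plus strand) and had 8, 12 and 16 reads, or 0.522, 0.708 and 1.12 CPM. For reference, a limit of 3 counts stands at 0.196, 0.177 and 0.210 CPM in the 3 libraries. The ratio of both siRNAs to control was 0.873 for Pcsk1 (0.500 to 1.51) and 2.15 for Pcsk2 (0.868 to 5.80). All intervals of both genes included 1 in the 3 comparisons, so no difference could be detected at this depth. Pcsk2 did not reach 1 CPM in the comparison of Ptbp1 siRNA with control and was not tested there, and about 4.54% of its exonic sequence overlaps another gene.

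Other members of the convertase family were well above them. Furin, the convertase of the Golgi and cell surface, stood at 31.4, 38.7 and 34.6 RPKM, and Mbtps1, the site-1 protease of the Golgi, at 40.9, 46.1 and 50.6 RPKM. Per length, Furin was 73.1 times the level of Pcsk1 in the control library (51.7 to 107), 133 times after Ptbp1 siRNA (88.4 to 210) and 88.4 times after both (60.2 to 136). These intervals overlap, so the order of the 3 ratios is not resolved. Pcsk6 stood between 10.6 and 11.6 RPKM, while Pcsk5 had 1, 4 and 1 reads. Pcsk7, a convertase of the trans-Golgi network, had 303, 426 and 458 reads and was 1.62-fold higher after both siRNAs (1.40 to 1.88), though 10.3% of its exonic sequence overlaps another gene.

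**Figure D3:**
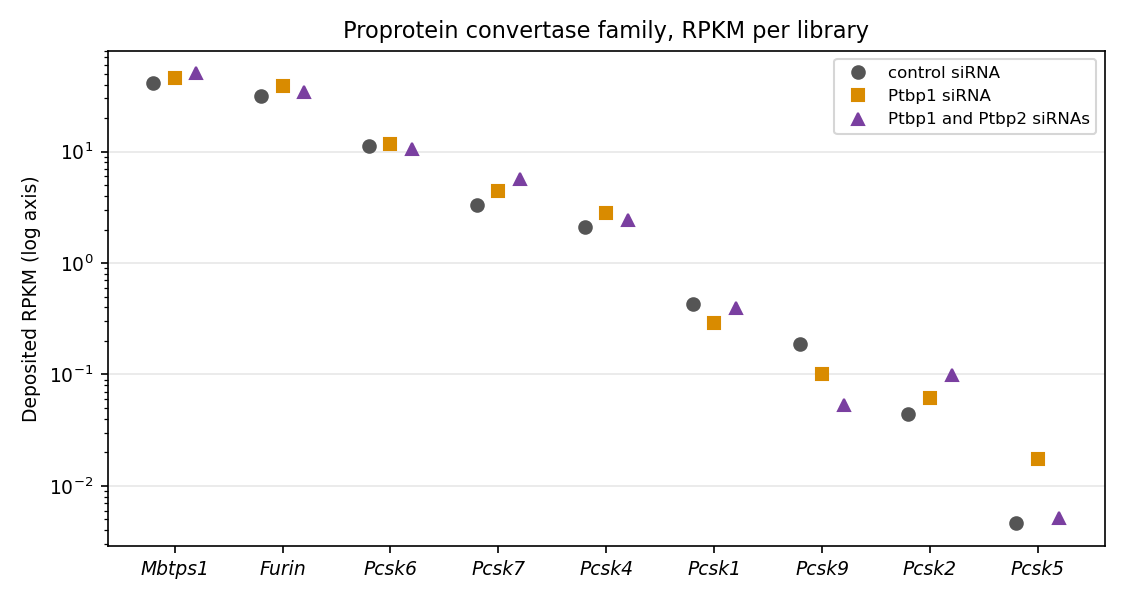
Deposited RPKM (log axis) of 9 proprotein convertase genes in the 3 libraries, 1 point per library without error bars. Furin and Mbtps1 lie between 31.4 and 50.6 RPKM in every library, while Pcsk1 and Pcsk2, the convertases of dense core granules, lie below 0.5.

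Transcripts of the 2 convertase-binding proteins were abundant beside the scarce transcripts of their partners. Pcsk1n encodes a granin-like inhibitor of the Pcsk1 product (chromosome X, 7496949 to 7500362, plus strand) and had 1905, 1892 and 1841 reads, or 124, 112 and 129 CPM. It was 1.11-fold below the control after Ptbp1 siRNA (1.04 to 1.19), and after both siRNAs the ratio to the control was 1.04 (0.974 to 1.11). About 6.16% of its exonic sequence overlaps another gene. Scg5 encodes the chaperone that the Pcsk2 product needs in order to mature (chromosome 2, 113616471 to 113669249, minus strand) and had 1450, 1325 and 977 reads, or 94.6, 78.2 and 68.5 CPM. It was lower in each step, 1.21-fold below the control after Ptbp1 siRNA (1.12 to 1.31) and 1.38-fold after both siRNAs (1.27 to 1.499). Per length, the Pcsk1n level was 180 times that of Pcsk1 in the control library (127 to 264), and the Scg5 level was 1115 times that of Pcsk2 (564 to 2587).

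Cpe, the carboxypeptidase of the granule (chromosome 8, 67071350 to 67171838, minus strand), had 4122, 3812 and 3430 reads, or 269, 224.9 and 241 CPM. The Ptbp1 siRNA library was the lowest, 1.20-fold below the control (1.14 to 1.25), and the library with both siRNAs was 1.12-fold below it (1.07 to 1.17). Its relative Cpd, which works earlier in the pathway, was far lower: per length, Cpe stood at 10.7, 10.05 and 11.1 times the level of Cpd. Apart from Pcsk2 and Pcsk1n, no member shared exon bases with another annotated gene.

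**Figure D4:**
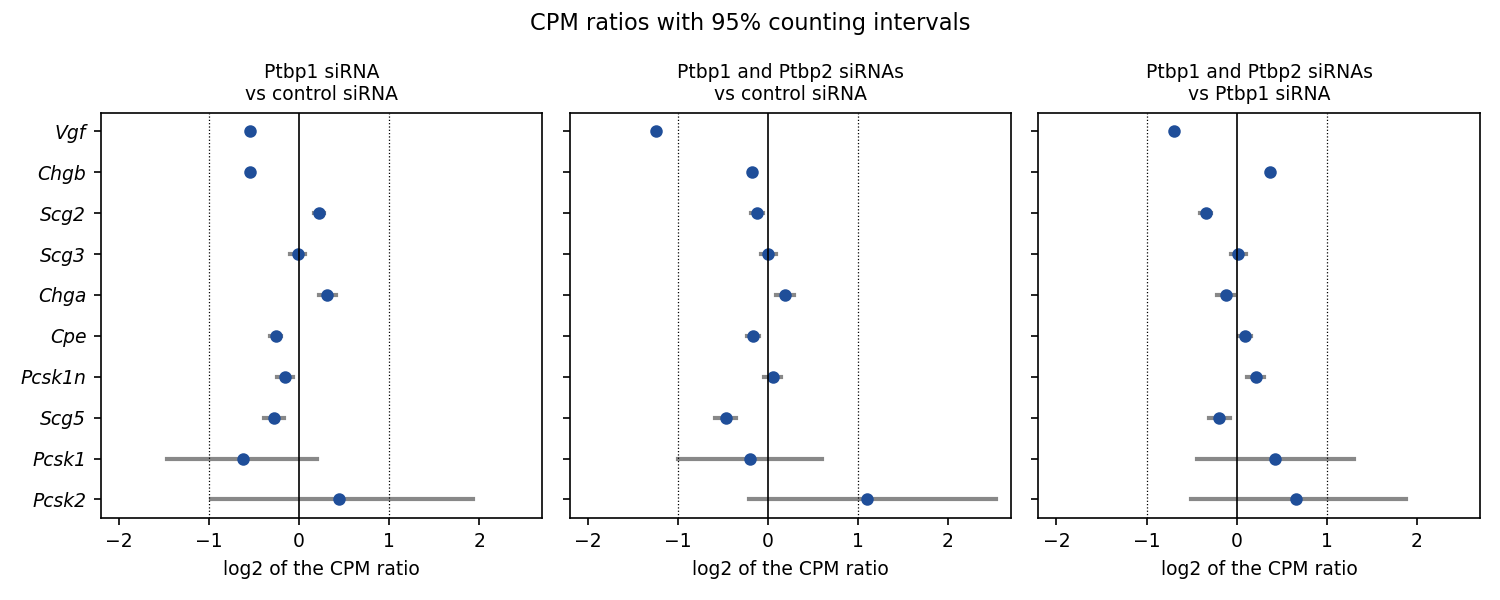
Log2 of the CPM ratio (points) with exact 95% counting intervals (bars, hidden by the points where narrow) for the 10 genes in the 3 library comparisons. Dotted lines mark 2-fold, and Vgf after both siRNAs, at 2.36-fold lower, lies beyond it with an interval that excludes 1, while the wide intervals of Pcsk1 and Pcsk2 cross 0.

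Few members were called by size, as were few of all genes tested, and counts this small do not set the members apart. After Ptbp1 siRNA 0 of 9 members tested were called, where 0.730% of the 13284 genes tested were called. After both siRNAs 1 of 10 was called lower, Vgf, where 2.66% of 13304 genes were called lower, 1.10% higher and 3.77% in either direction. Between the knockdown libraries 0 of 10 were called against 0.450% of 13338 genes. Any 2 of the comparisons share a library, so they are not independent.

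Smaller differences were common in these deep libraries. After Ptbp1 siRNA the counting interval excluded 1 for 5 of 9 members on the lower side, where 25.6% of all genes tested did so, and for 2 on the higher side against 21.9%. After both siRNAs it did so for 5 of 10 on the lower side against 31.7% and for 1 on the higher side, Chga, against 29.6%. Between the knockdown libraries the numbers were 4 of 10 lower against 22.5% and 3 of 10 higher, Chgb, Pcsk1n and Cpe, against 22.3%. Abundant genes have narrow intervals: among genes of at least 50 CPM the share on the lower side was 38.9%, 41.4% and 29.0% in the 3 comparisons, and that on the higher side 27.9%, 38.3% and 33.9%. The median log2 difference of the members tested was -0.26, -0.12 and 0.06, and that of all genes tested -0.0023, -0.0057 and -0.0049. Without Vgf the members' medians were -0.21, -0.12 and 0.10.

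**Figure D5:**
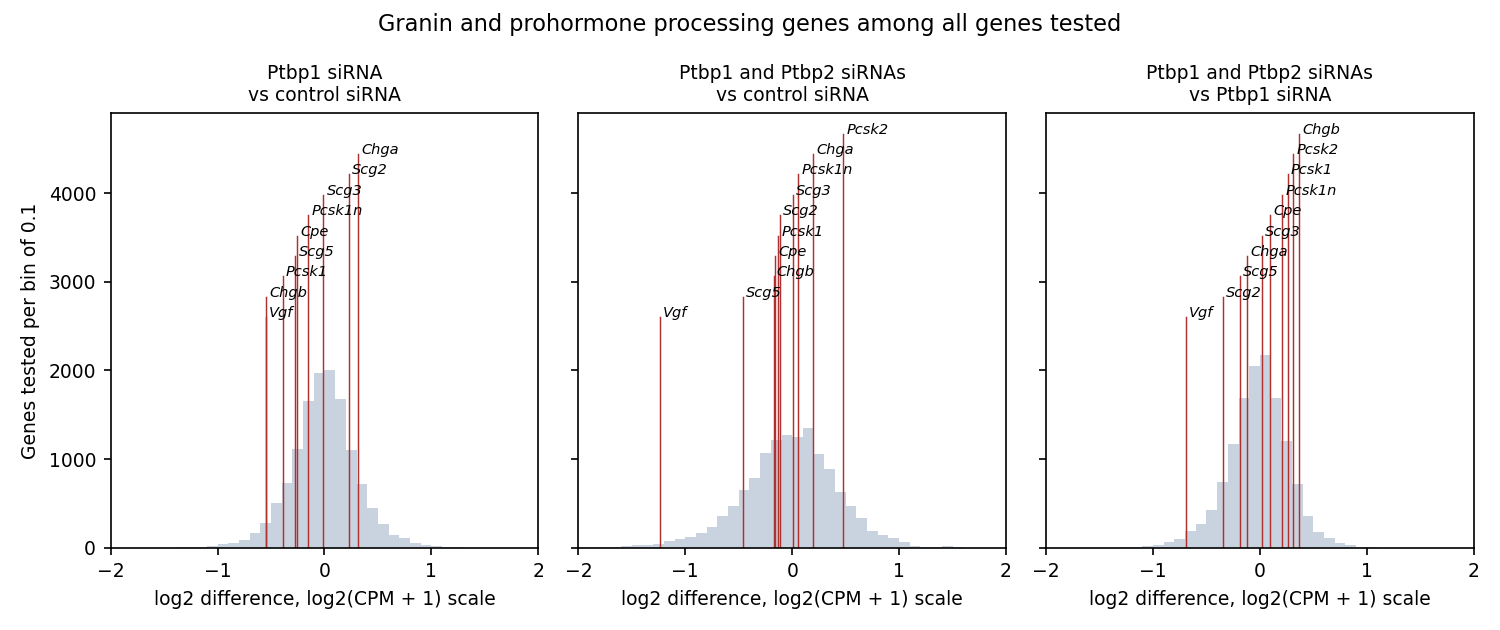
Number of genes per bin of 0.1 in log2 difference (bars, log2(CPM + 1) scale, genes beyond 2 not drawn) in the 3 comparisons, with a labelled line for each member tested, whose height only places its name. Vgf and Chgb lie together at -0.55 and -0.54 in the first panel, and apart at -0.69 and 0.37 in the third.

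The genes whose pair of differences from the control lay closest to that of Vgf, among genes of at least 50 CPM in the control library, were Wwtr1, C330021F23Rik, Stard4, Scd1 and H2-K1. Likeness was the Euclidean distance between the 2 log2 differences, over 3 libraries, and ran from 0.020 for Wwtr1 to 0.080 for H2-K1. Wwtr1, a transcriptional coactivator of the Hippo pathway, was 1.45-fold and 2.38-fold lower than in the control, and Scd1, a fatty acid desaturase gene, 1.51-fold and 2.29-fold lower. Of the 5129 genes of at least 50 CPM in the control library, 62 were lower than Vgf after both siRNAs.

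Other peptide processing enzymes showed no call in any comparison, where 0.730%, 3.77% and 0.450% of all genes tested were called. Of 18 listed, 15 were tested after both siRNAs, 8 were above 0 and 7 below, and the median log2 difference was 0.02. Ctsl, a cysteine protease of lysosomes that also processes prohormones, had 1910, 1803 and 1248 reads and was 1.42-fold lower after both siRNAs (1.33 to 1.53). Cpm, a membrane carboxypeptidase gene, had 26, 38 and 45 reads and was 1.86-fold higher (1.12 to 3.14). Pam, the enzyme that amidates peptides, had 2340, 2508 and 1566 reads and was 1.39-fold lower after both siRNAs (1.30 to 1.48), while after Ptbp1 siRNA the ratio was 0.969 (0.916 to 1.03).

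Of 32 other dense core granule genes 25 were tested. None was called in any comparison, where 0.730%, 3.77% and 0.450% of all genes tested were called. Their median was -0.07 in the Ptbp1 siRNA comparison with control and -0.16 with both siRNAs. In the latter 18 of the 25 were below 0, and the interval excluded 1 for 13 on the lower side, where 31.7% of all genes tested did so, and for 5 on the higher side against 29.6%. Among genes of at least 50 CPM those shares were 41.4% and 38.3%. Ptprn, a phosphatase-like protein of the granule membrane, was the abundant member with the largest difference: 8952, 8335 and 4802 reads, 1.19-fold lower after Ptbp1 siRNA (1.15 to 1.22) and 1.73-fold lower after both (1.67 to 1.80). Slc18a1, a monoamine transporter of granules, had 78, 95 and 33 reads and was 2.20-fold lower after both siRNAs on the ratio scale (1.45 to 3.41), with a log2 difference of -0.88. Its relative Slc18a2 went the other way, with 127, 176 and 157 reads and a level 1.33-fold higher after both siRNAs (1.04 to 1.69). Vps51, a tethering complex subunit that acts in granule maturation, was 1.62-fold lower (1.51 to 1.74), with 24.9% of its exon bases shared. Vps52 and Vps53 of the same list went the other way after both siRNAs. Vps52 was 1.43-fold higher (1.27 to 1.61) and Vps53 1.43-fold higher (1.27 to 1.62), with 4.02% and 2.88% of exon bases shared. Cadps2 and Rab27b, known from granule release in other cells, had 0 reads in all 3 libraries. Rab27a had 569, 651 and 342 reads and was 1.55-fold lower after both siRNAs (1.35 to 1.78).

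Most precursors that such enzymes cut were at or near the floor. Of 45 neuropeptide and hormone precursor genes, 14 reached 1 CPM in the comparison of both siRNAs with control. Of these 1 was called in each direction, where 2.66% of all genes tested were called lower and 1.10% higher. Adm, the adrenomedullin gene, had 436, 379 and 126 reads and was 3.22-fold below the control after both siRNAs (2.63 to 3.96) and 2.53-fold lower than after Ptbp1 siRNA (2.06 to 3.12). Sct, the secretin gene, had 47, 118 and 106 reads and was 2.42-fold higher after both siRNAs (1.70 to 3.49). Nppb, a natriuretic peptide gene, was called after Ptbp1 siRNA, with 47 reads against 13 (3.27-fold, 1.74 to 6.59). It was the 1 called of 15 precursor genes tested there, against 0.730% of all genes tested. Npy, the neuropeptide Y gene, was the highest of the list per length at 129, 82.4 and 105 RPKM, and it was 1.63-fold lower after Ptbp1 siRNA (1.52 to 1.76) and 1.28-fold lower after both (1.19 to 1.38). Its order over the libraries, lowest after Ptbp1 siRNA, is that of Chgb. Nucb1, a calcium-binding protein of the Golgi, was 1.80-fold lower after both siRNAs (1.69 to 1.92), and Cartpt was 1.37-fold higher (1.04 to 1.82).

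Transcription factors known to act on granule genes included 1 called gene, between the knockdown libraries, where 0.450% of the 13338 genes tested were called. Insm1, a zinc finger factor of neuroendocrine differentiation, had 300, 310 and 542 reads and was 2.08-fold higher after both siRNAs than after Ptbp1 siRNA (1.80 to 2.40). Of 16 listed, 14 were tested in each comparison, with medians of -0.06, 0.06 and -0.03. After both siRNAs Myt1 was 1.92-fold above the control (1.75 to 2.10) and Egr1, an immediate early gene, 1.70-fold (1.51 to 1.91). Crem, whose product binds the cyclic AMP response element, was 1.77-fold lower (1.42 to 2.22), from 234, 183 and 123 reads. Creb1, which binds the same element, had 746, 923 and 835 reads, or log2 differences of 0.16 and 0.26 from the control.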

How the data were processed

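The deposited table, made by the authors on gene clusters of mm9 per the file headers, gives 27389 clusters with a whole-number read value per library and an RPKM value that the authors derived from it with library totals of 24167120, 25649604 and 21572838. Aligner, counter and gene set are not given in the sources used here, nor whether a value counts reads or pairs. The read values are net: 38 clusters were below 0 (lowest -65) and were left out, with 127 without length. The others were treated as counts, so intervals are approximate. Clusters were named from aliases and GENCODE vM1 (same build), and the row with the highest mean was kept per symbol. Libraries were scaled by trimmed means of M values (numpy 2.4.6, scipy 1.17.1; factors 0.972, 1.02 and 1.01). Log2 differences were taken of CPM + 1, a pseudocount that shrinks the differences of low genes, and ratios are of CPM without it. Strand was not marked. 

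Named were all members and, in the other lists, genes called by size with at least 50 reads in the pair plus up to 3 with the largest difference after both siRNAs. Furin, Mbtps1, Pcsk5, Pcsk6, Cpd, Pam, Creb1, Cadps2, Rab27a, Rab27b, Slc18a2, Vps52, Vps53, Dbh, Phox2a, Col1a1 and Pecam1 were named after their values were seen. The members and lists were chosen with earlier results of these data known. Alternatives were other pseudocounts, filters, scalings, size limits, summed rows and the deposited RPKM.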

Additional observations from a re-analysis of the deposited data

How the results depend on the processing

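The 1 member difference called by size, Vgf after both siRNAs, kept its sign under the 11 alternatives, of which the filters and size limits cannot alter it. The cause of the shifts given here was not tested. The 6 settings that can alter a member's difference itself (pseudocounts, scalings and the deposited RPKM) gave 169 values, of which 155 were taken as unmoved. A difference not called had to stay uncalled and within its counting interval, while for the called difference of Vgf only the call had to be kept. Under library-total scaling and with the deposited RPKM that difference was -1.18, still called but outside its counting interval, and it is not among the moved values below. Quantile scaling moved 6 of its 29 values outside, all of Vgf or Chgb: after Ptbp1 siRNA they were -0.32 and -0.28 in place of -0.55 and -0.54, and between the knockdown libraries -0.64 and 0.40. Library-total scaling moved 5 of its 29 values, of Chgb, Vgf, Scg2 and Cpe, and the deposited RPKM 3 of its 24, of Chgb and Vgf. The number of members called after both siRNAs was 0 instead of 1 under quantile scaling, with Vgf at -0.96, and under a 3-fold limit, which is stricter by construction. With a 1.5-fold limit 1 member, Vgf, was called between the knockdown libraries. Signs differed from the main value for Chgb after both siRNAs under quantile scaling (0.12) and in 4 instances for Scg3, whose values lay between -0.02 and 0.07. The members' medians stayed within the typical counting interval under all alternatives, but that between the knockdown libraries was -0.05 with a filter of 5 CPM and with the deposited RPKM, where Pcsk1 and Pcsk2 drop out.

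The number of all genes called, 97, 501 and 60 in the order Ptbp1 siRNA against control, both siRNAs against control, both against Ptbp1 siRNA, depended on the setting. It was 306, 879 and 256 with a pseudocount of 0.1, 30, 219 and 10 with a pseudocount of 5, 856, 2303 and 725 at 1.5-fold, 10, 56 and 2 at 3-fold, and 48, 250 and 26 with the deposited RPKM. A filter of 5 CPM gave 38 in the third comparison. Library-total scaling made 51.02% of calls higher in the first comparison against 39.2%, and 40.3% against 29.3% in the second. The pseudocount moved that share further: 56.5%, 39.8% and 33.6% of calls were higher in the 3 comparisons with 0.1, and 13.3%, 20.55% and 10% with 5, against 39.2%, 29.3% and 23.3%. With the deposited RPKM the first was 27.1%. No paired analysis was possible because each group has 1 library. No replicate could be left out for the same reason. Depth limits Pcsk1 and Pcsk2, which rest on 32 reads or fewer per library.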
